A study of Homo sapiens with 9 samples.

Results

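β-catenin, the proteins that destroy it and the factors it meets in the nucleus were followed through 10 genes: CTNNB1 itself, the destruction complex genes APC, AXIN1, AXIN2, GSK3B and CSNK1A1, the transcription factor genes LEF1 and TCF7L2, and the feedback genes NKD1 and ZNRF3. They were chosen by symbol among the 61209 gene symbols of the count table, with earlier results of these data known. All 10 were among the 16976 genes tested. The data were bulk polyA RNA sequencing of GIST-T1, a single imatinib-sensitive line of human gastrointestinal stromal tumor (GIST) whose genotype is given as KIT exon 11 del560-79. Cells received an siRNA against ERRα, the orphan nuclear receptor encoded by ESRRA (siERRα), or a non-target control siRNA plus imatinib, which blocks the KIT kinase, at 50 nM (imatinib), or the non-target control siRNA alone (siNC). Each of the 3 groups had 3 libraries, all groups were transfected with Lipofectamine, and cells were harvested 48 h after transfection. In the column names the imatinib libraries are numbered S16 to S18 and alone carry 48H, and those of the other groups are S1 to S6. Whether the imatinib libraries were handled apart is not stated, and a part of this in the values was not tested. Nothing states that the libraries came from separate cultures, so p-values measure the spread between libraries, which may be technical. In bulk RNA, fewer cells with a transcript and less transcript per cell cannot be told apart.

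In canonical Wnt signalling, the scaffolds AXIN1, AXIN2 and APC hold β-catenin beside the kinases CSNK1A1 and GSK3B, whose phosphorylation sends it to the proteasome. When a Wnt ligand disables this complex, β-catenin accumulates, enters the nucleus and binds TCF/LEF factors at their target genes. AXIN2, NKD1, ZNRF3 and LEF1 are themselves widely used readouts of the pathway, because β-catenin with TCF/LEF induces them and the first 3 of these then dampen the signal. β-catenin also links cadherins to the actin cytoskeleton at cell contacts.

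The targeted gene was checked first. ESRRA stood at 1.40, 0.757 and 1.34 CPM (normalised counts scaled to a common library size) in the siERRα libraries, at 30.4, 32.0 and 35.6 CPM with imatinib and at 40.7, 44.7 and 40.9 CPM in the siNC libraries, so the siERRα libraries held 2.77% of the siNC level. With imatinib alone, ESRRA was also lower than in siNC (log2FC −0.37, edgeR adjusted p = 0.00383). Library totals ran from 37527236 to 49363002 counts. Mitochondrial transcripts took 0.943% to 1.03% of the counts in siERRα, 1.48% to 1.54% with imatinib and 0.846% to 0.989% in siNC, and their part in the values below was not tested. All 8 GIST markers examined, KIT, ANO1 and ETV1 among them, reached 1 CPM in every library, whereas none of 4 leukocyte and none of 3 endothelial markers did. Of 5 epithelial markers, KRT8 and KRT18 did so, while EPCAM, CDH1 and KRT19 did not. The summed level of the endothelial list was 1.2 to 1.66 CPM in siERRα, 1.86 to 3.01 CPM with imatinib and 1.34 to 1.61 CPM in siNC, and that of the epithelial list was 279.6 to 303 CPM in siERRα, 193 to 223 CPM with imatinib and 302 to 315 CPM in siNC.

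Knockdown of ERRα was accompanied by lower RNA of β-catenin and of 5 further genes of the set, and by a higher level of none. CTNNB1, APC, AXIN2, LEF1, NKD1 and ZNRF3 were called lower in siERRα against siNC, 6 of 10, where 12.6% of all genes tested were called lower. The 10 genes were chosen with earlier results of these data known, so their share is not independent of the values. The share over all genes also takes in genes at lower levels than any of the 10. None of the 10 was called higher, where 11.4% of all genes were, and AXIN1, GSK3B, CSNK1A1 and TCF7L2 were not called. A call means a Benjamini-Hochberg adjusted p under 0.05 over all genes in the edgeR quasi-likelihood test. Of the 6, CTNNB1, APC, AXIN2 and NKD1 also differed by a log2FC of at least 0.5, as did 7.26% of all genes. The calls of LEF1 and ZNRF3 rested on single libraries, as described with each gene. The direction of the 10 genes with imatinib was mixed. CTNNB1, AXIN2 and NKD1 were higher (3 of 10, against 21.4% of all genes) and CSNK1A1 and GSK3B were lower (2 of 10, against 20.3%). AXIN2 alone of the 10 passed the log2FC of 0.5 with imatinib, as did 17.6% of all genes.

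**Figure D1:**
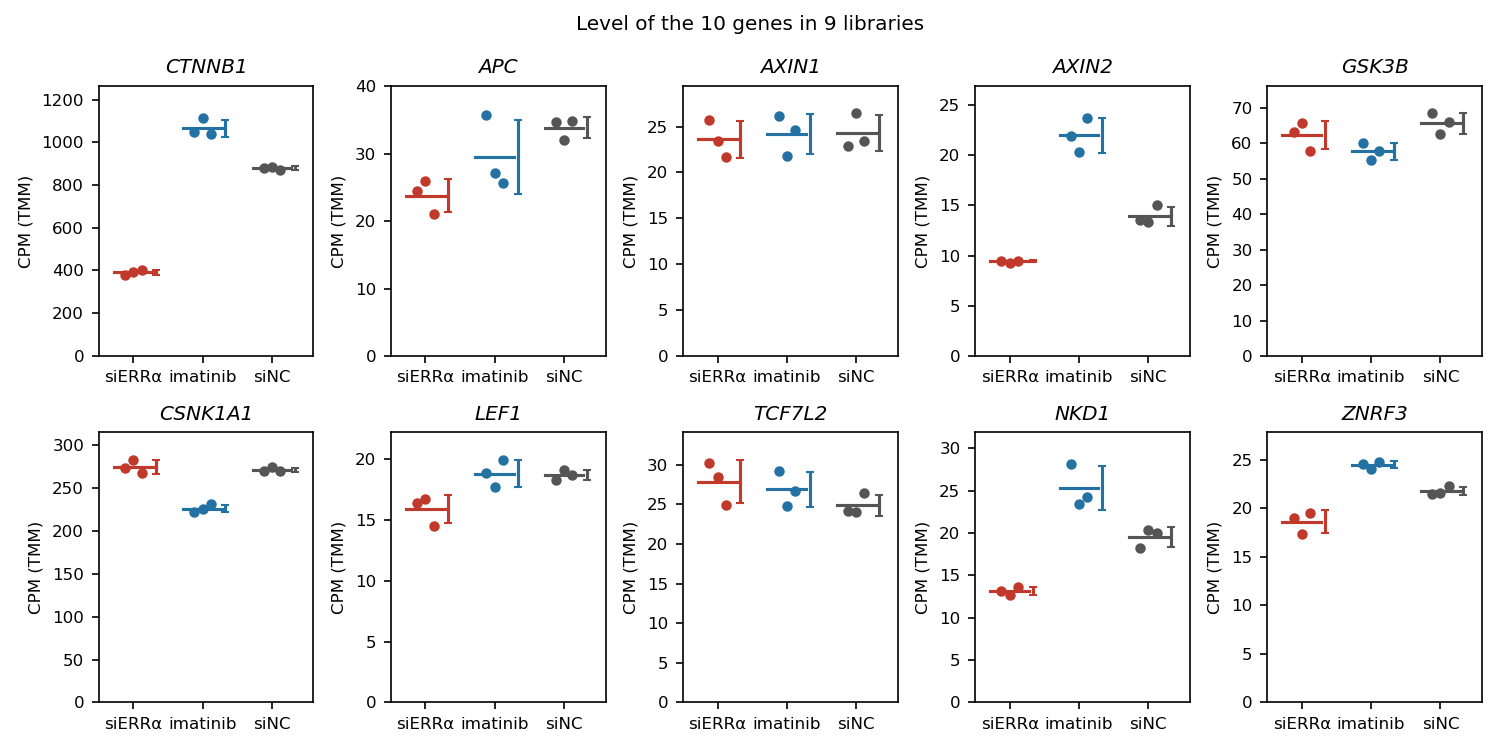
CPM, normalised by trimmed mean of M-values (TMM), on a linear axis from 0 for each of the 10 genes. Points are single libraries, horizontal lines are group means and the bars beside them 1 SD (n = 3 for siERRα, imatinib and siNC, from left to right). CTNNB1, AXIN2, NKD1 and ZNRF3 are lowest in siERRα and highest with imatinib, with no overlap between groups, whereas the 3 groups of AXIN1 lie over each other.

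CTNNB1 (ENSG00000168036, GRCh38 chr3:41194741-41260096, plus strand) encodes β-catenin and had the largest change of the set after knockdown. It stood at 379, 391 and 403 CPM in siERRα, at 1048, 1112 and 1039.6 CPM with imatinib and at 882, 885 and 868 CPM in siNC. The groups did not overlap, and by the ratio of mean CPM the siERRα level was 44.5% of that in siNC. The log2FC of siERRα against siNC was −1.17 (SE 0.0513, 95% interval −1.28 to −1.06, adjusted p = 2.31e-11). Among the 2365 genes that averaged at least 100 CPM, 4 had a lower log2FC than CTNNB1, and among all 16976 genes 146 did. With imatinib CTNNB1 was higher than in siNC by a log2FC of 0.28 (SE 0.0506, adjusted p = 0.00019), to 121% of the siNC level.

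A stretch of 7 bases, ATGTTCT (the heptamer), lies in the 3′ UTRs of CTNNB1, LEF1, CSNK1A1 and ZNRF3. It drew attention in earlier work on these same libraries because many genes with lower RNA in siERRα carry it, so it was not chosen independently of the values. The sites are shown because the member with the largest change carries one of them. Each is printed from 5′ to 3′ on the transcribed strand with 11 bases on either side, and capitals mark the heptamer (GRCh38, canonical transcripts of GENCODE release 44).
CTNNB1, exon 15: ggaacattggaATGTTCTcagatttctgg
LEF1, exon 12: tattactttaaATGTTCTgtatttgtatc
CSNK1A1, exon 10, first site: ttaactctataATGTTCTtggtattaaaa
CSNK1A1, exon 10, second site: tattaaggaatATGTTCTtatagcttttg
ZNRF3, exon 9, first site: atagtaagggcATGTTCTtggggccctcg
ZNRF3, exon 9, second site: tttatggaaatATGTTCTcagaatattta
The heptamers lie at chr3:41239514-41239520 (plus strand) for CTNNB1 and chr4:108047752-108047758 (minus strand) for LEF1. Those of CSNK1A1 lie at chr5:149496171-149496177 and chr5:149494046-149494052 (minus strand), and those of ZNRF3 at chr22:29054472-29054478 and chr22:29057240-29057246 (plus strand).

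The heptamer was present in 3 of the 6 members that were lower in siERRα and in 1 of the 4 that were not called. CSNK1A1, with 2 copies, had a log2FC of 0.02, and ZNRF3, also with 2 copies, one of −0.23. APC, AXIN2 and NKD1 hold no copy and had log2FC values of −0.51, −0.57 and −0.57. Over the 12748 tested genes with a canonical 3′ UTR of at least 50 bases, 2419 (19.0%) hold the heptamer. Of these, 30.3% were called lower in siERRα against siNC, and of the other 10329 genes 12% were, with median log2FC values of −0.097 and 0.029. With imatinib against siNC, 26.0% of the genes with the heptamer and 23.0% of those without it were called lower. The share of genes that hold it grows with the length of the 3′ UTR, from 10.6% of 977 genes at 1000 to 1300 bases, where CTNNB1 (1101 bases) and LEF1 (1210 bases) lie, to 40.7% of 472 genes at 3500 to 4000 bases, where CSNK1A1 (3871 bases) and ZNRF3 (3866 bases) lie. The labels and methods name no siRNA sequence, and a part of the heptamer in the members' values was not tested.

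**Figure D2:**
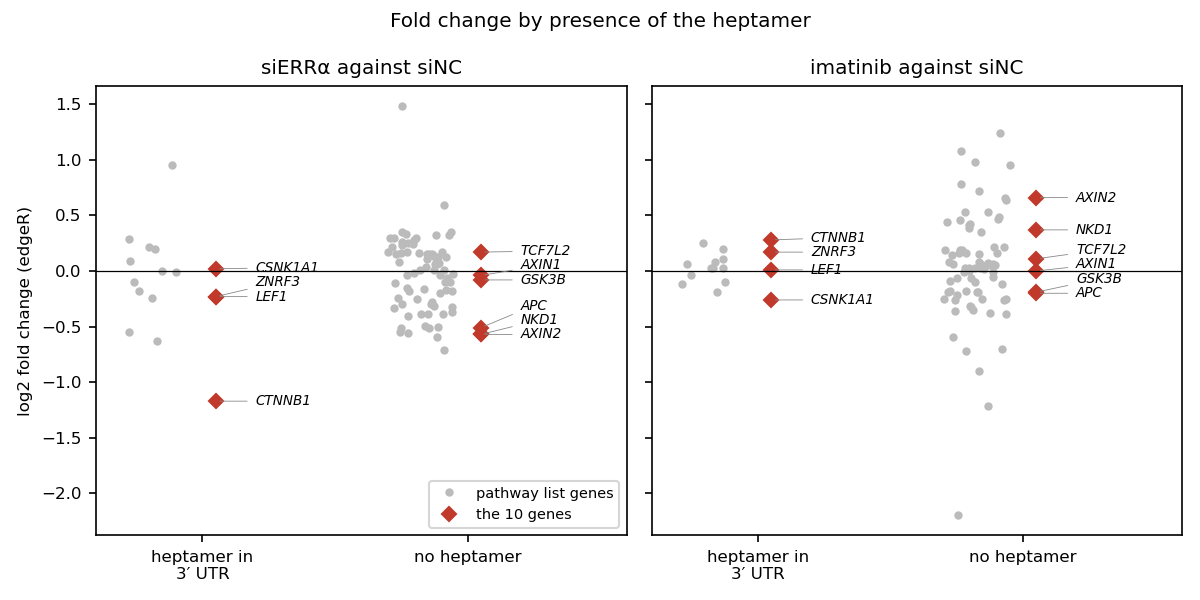
The log2FC against siNC of the 10 genes (diamonds) and of the tested genes of 5 pathway lists with a 3′ UTR of at least 50 bases (grey points), split by whether the 3′ UTR holds the heptamer, for siERRα (left) and imatinib (right). CTNNB1 at −1.17 is the lowest gene with the heptamer in siERRα, CSNK1A1 with 2 copies lies at 0.02, and APC, AXIN2 and NKD1 without it lie between −0.51 and −0.57. The lowest grey point with imatinib is FOSL1 at −2.19, a gene that averaged 0.607 CPM with imatinib.

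Of the 5 destruction complex genes, the scaffold genes APC and AXIN2 were lower in siERRα, and AXIN1, GSK3B and CSNK1A1 were not called. APC (ENSG00000134982, chr5:112707518-112846239, plus strand) encodes the large scaffold truncated in most colorectal cancers. It stood at 24.5, 25.9 and 21.1 CPM in siERRα, at 35.7, 27.1 and 25.6 CPM with imatinib and at 34.8, 32.0 and 34.9 CPM in siNC. All 3 siERRα libraries lay below all 3 siNC libraries, while the imatinib libraries spread over the range of both. The log2FC of siERRα was −0.51 (SE 0.104, adjusted p = 0.00136) and that of imatinib −0.20 (SE 0.103, adjusted p = 0.127). The value with imatinib depended on its first replicate, without which it was −0.36 (adjusted p = 0.0033). It was also called with no filter on low counts (adjusted p = 0.0419).

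AXIN2 (ENSG00000168646, chr17:65528563-65561648, minus strand), the axin that β-catenin with TCF/LEF induces, was lower in siERRα and higher with imatinib. Its level was 9.45, 9.30 and 9.50 CPM in siERRα, 21.9, 20.3 and 23.7 CPM with imatinib and 13.5, 13.4 and 15 CPM in siNC. The 3 groups did not overlap, and the lowest imatinib library was above the highest siNC library. The log2FC against siNC was −0.57 in siERRα (SE 0.0851, adjusted p = 6.48e-05, 67.6% of siNC) and 0.66 with imatinib (SE 0.0817, adjusted p = 3.05e-06, 158% of siNC). AXIN1 (ENSG00000103126, chr16:287440-352723, minus strand), its constitutive relative, stood at 25.7, 23.4 and 21.7 CPM in siERRα, at 26.2, 21.8 and 24.6 CPM with imatinib and at 22.9, 26.5 and 23.4 CPM in siNC. These groups overlapped throughout, with 95% intervals of the log2FC from −0.22 to 0.14 in siERRα and from −0.18 to 0.18 with imatinib.

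Both kinase genes were called lower with imatinib, and neither was called in siERRα. CSNK1A1 (ENSG00000113712, chr5:149492982-149551471, minus strand) encodes casein kinase 1α, which places the priming phosphate on β-catenin. It stood at 273, 283 and 267 CPM in siERRα, at 222, 226 and 231 CPM with imatinib and at 270.1, 274 and 269.6 CPM in siNC. The imatinib libraries lay below all others, and the siERRα and siNC libraries overlapped. The log2FC was 0.02 in siERRα (95% interval −0.09 to 0.12, adjusted p = 0.856) and −0.26 with imatinib (SE 0.05, adjusted p = 0.000329).

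GSK3B (ENSG00000082701, chr3:119821321-120094994, minus strand), the kinase that completes the phosphorylation, stood at 63.3, 65.8 and 58.0 CPM in siERRα, at 60.2, 55.3 and 57.8 CPM with imatinib and at 68.5, 62.7 and 66.0 CPM in siNC. The imatinib libraries lay just below the siNC libraries, and the siERRα libraries overlapped with both. The log2FC was −0.08 in siERRα (95% interval −0.21 to 0.06, adjusted p = 0.447) and −0.19 with imatinib (SE 0.0650, adjusted p = 0.027). The call with imatinib was lost without siNC replicate 1 (adjusted p = 0.118), siNC replicate 3 (0.0705), imatinib replicate 2 (0.0849) or imatinib replicate 3 (0.055).

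The TCF/LEF factors bring β-catenin to DNA. LEF1 (ENSG00000138795, chr4:108047545-108168956, minus strand) was at 16.4, 16.7 and 14.5 CPM in siERRα, at 18.9, 17.7 and 19.9 CPM with imatinib and at 18.3, 19.1 and 18.7 CPM in siNC. The siERRα libraries lay below the others, and the imatinib libraries lay on either side of siNC. The log2FC in siERRα was −0.23 (SE 0.0785, adjusted p = 0.0372). This call was lost without any single siNC replicate (adjusted p = 0.0705, 0.0807 and 0.0843 without replicates 1, 2 and 3), without siERRα replicate 1 (0.059) or 3 (0.142) and with no filter on low counts (0.0709). With imatinib the log2FC of LEF1 was 0.01 (95% interval −0.16 to 0.17, adjusted p = 0.943).

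TCF7L2 (ENSG00000148737, chr10:112950247-113167678, plus strand), which encodes TCF4, was at 30.3, 28.5 and 24.9 CPM in siERRα, at 29.2, 24.8 and 26.7 CPM with imatinib and at 24.2, 24.0 and 26.4 CPM in siNC. The 3 groups overlapped. The log2FC was 0.17 in siERRα (95% interval −0.01 to 0.34, adjusted p = 0.161) and 0.11 with imatinib (95% interval −0.06 to 0.29, adjusted p = 0.311).

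Both feedback genes were lower in siERRα. NKD1 (ENSG00000140807, chr16:50548396-50649249, plus strand) encodes naked cuticle homolog 1, which binds Dishevelled and restrains the signal. It stood at 13.2, 12.7 and 13.6 CPM in siERRα, at 28.2, 23.4 and 24.2 CPM with imatinib and at 18.2, 20.4 and 20 CPM in siNC, with no overlap between any of the groups. The log2FC was −0.57 in siERRα (SE 0.0846, adjusted p = 5.74e-05, 67.4% of siNC) and 0.37 with imatinib (SE 0.0824, adjusted p = 0.0013, 129% of siNC). ZNRF3 (ENSG00000183579, chr22:28883572-29057488, plus strand) encodes a membrane ubiquitin ligase that removes Wnt receptors from the cell surface. It stood at 19.0, 17.3 and 19.5 CPM in siERRα, at 24.6, 24.0 and 24.8 CPM with imatinib and at 21.5, 21.6 and 22.3 CPM in siNC. Its groups did not overlap either, though the gaps were small. The log2FC was −0.23 in siERRα (SE 0.0714, adjusted p = 0.024), a call lost without siNC replicate 1 (0.0593) or 3 (0.0895), siERRα replicate 2 (0.0798) or the filter on low counts (0.0574). With imatinib it was 0.17 (SE 0.0711, adjusted p = 0.0672), and this passed the threshold without siERRα replicate 2 (adjusted p = 0.0426).

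**Figure D3:**
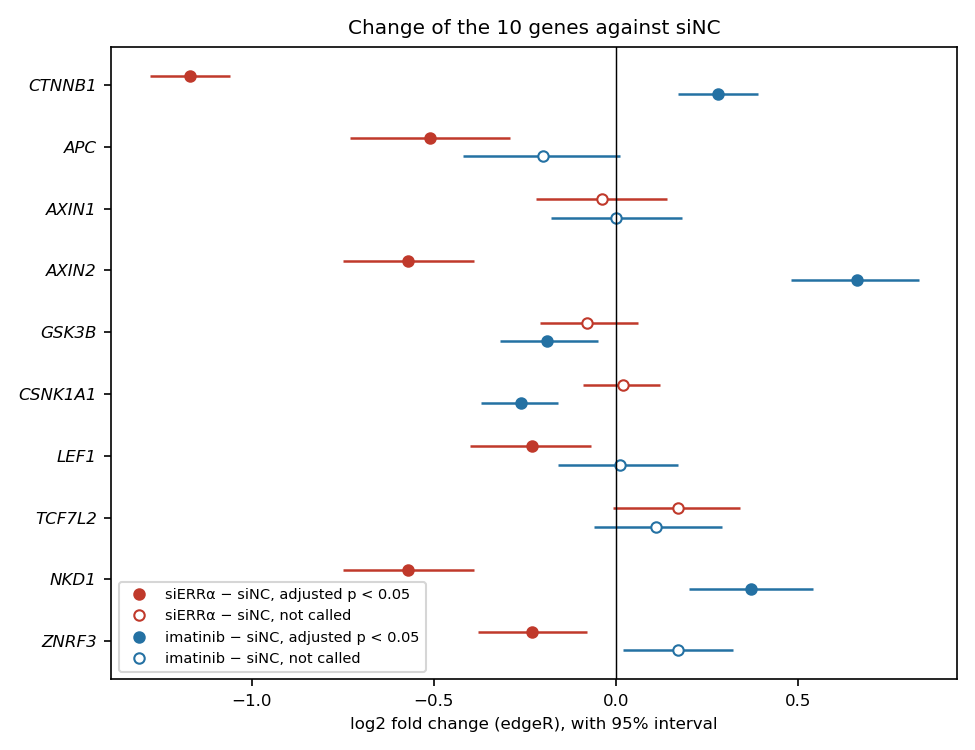
The log2FC of each gene against siNC with its 95% interval, for siERRα (upper marker of each gene) and imatinib (lower marker). Filled markers have an edgeR adjusted p under 0.05 and open markers do not. In siERRα the 6 filled markers all lie left of 0, from −1.17 to −0.23, and with imatinib filled markers lie at 0.28, 0.66 and 0.37 for CTNNB1, AXIN2 and NKD1 and at −0.19 and −0.26 for GSK3B and CSNK1A1.

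CTNNB1, AXIN2 and NKD1 were called in opposite directions by the siRNA and by imatinib. The comparisons with siNC share their control libraries, so the libraries of siERRα and imatinib were also set against each other directly. CTNNB1 was lower in siERRα than with imatinib by a log2FC of −1.45 (adjusted p = 1.55e-13), AXIN2 by −1.22 (adjusted p = 6.66e-10), NKD1 by −0.94 (adjusted p = 2.42e-08) and ZNRF3 by −0.40 (adjusted p = 0.000116). APC (−0.30, adjusted p = 0.0205) and LEF1 (−0.24, adjusted p = 0.0153) were lower as well, which makes 6 of 10 lower where 26.6% of all genes were. APC lost this call without siERRα replicate 3 (adjusted p = 0.0934) or imatinib replicate 1 (0.167), and LEF1 without siERRα replicate 3 (0.0712) or imatinib replicate 3 (0.0624). CSNK1A1 was the 1 gene higher in siERRα than with imatinib (log2FC 0.28, adjusted p = 0.000114), where 25.6% of all genes were. CTNNB1, AXIN2 and NKD1, 3 of 10, passed a log2FC of 0.5 in either direction, as did 26.3% of all genes, so the share of large differences in this comparison was near the background.

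Ratios within a library do not depend on how libraries are scaled to each other. For each AXIN1 count there were 0.367, 0.397 and 0.438 AXIN2 counts in siERRα, 0.838, 0.928 and 0.964 with imatinib and 0.588, 0.505 and 0.640 in siNC. For each CSNK1A1 count there were 1.39, 1.38 and 1.51 CTNNB1 counts in siERRα, 4.71, 4.93 and 4.50 with imatinib and 3.27, 3.23 and 3.22 in siNC. CSNK1A1 was itself called lower with imatinib (log2FC −0.26), which adds to the gap between imatinib and siNC in this ratio. Per count of AXIN1, which was not called, CTNNB1 counts averaged 16.7 in siERRα, 44.4 with imatinib and 36.4 in siNC. The groups of these ratios did not overlap. The order of the groups seen in CPM, imatinib above siNC and siNC above siERRα, was the same in these ratios. They reuse the same counts and are not separate evidence. Each exact permutation test between groups gave a two-sided p = 0.1, the smallest that 3 against 3 libraries allow. The LEF1 to TCF7L2 ratio was 0.570 ± 0.0248 in siERRα, 0.702 ± 0.0486 with imatinib and 0.753 ± 0.0435 in siNC (SD, n = 3), and imatinib and siNC overlapped here (exact permutation p = 0.3).

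**Figure D4:**
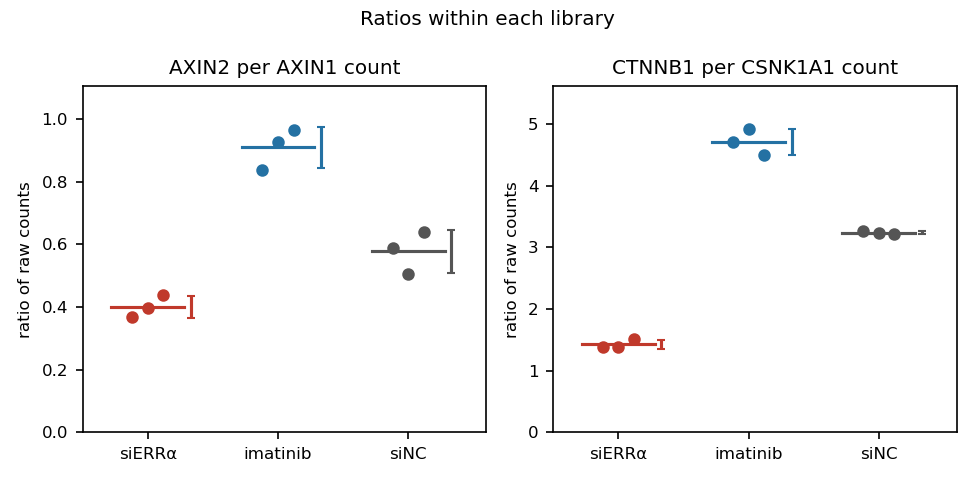
AXIN2 counts per AXIN1 count (left) and CTNNB1 counts per CSNK1A1 count (right) in each library, on linear axes from 0. Points are libraries, horizontal lines are group means and the bars beside them 1 SD (n = 3). In each panel siERRα is lowest and imatinib highest, with CTNNB1 to CSNK1A1 means of 1.43, 4.71 and 3.24 in siERRα, imatinib and siNC.

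Levels of different genes were compared per kilobase of all exons joined. CTNNB1 was at 33.2 ± 1.03 CPM per kilobase in siERRα, at 90.7 ± 3.38 with imatinib and at 74.7 ± 0.784 in siNC (SD, n = 3). CSNK1A1 came second, at 32.3 ± 0.968, 26.6 ± 0.502 and 31.9 ± 0.298 CPM per kilobase in the same groups. In siERRα the ranges of these 2 genes overlapped (32.2 to 34.3 and 31.4 to 33.3), whereas with imatinib and in siNC that of CTNNB1 lay far above. The other 8 genes lay between 1.13 and 3.69 CPM per kilobase in siNC, in the order TCF7L2, GSK3B, LEF1, AXIN1, ZNRF3, AXIN2, APC and NKD1. In this order the ranges of neighbours overlapped from TCF7L2 (3.57 to 3.92) down to ZNRF3 (3.08 to 3.19), and AXIN2 (2.57 to 2.88), APC (2.35 to 2.56) and NKD1 (1.05 to 1.18) each lay below the gene before it with no overlap. The order depends on the length used. By the length of the canonical transcript, chosen after seeing the data, CTNNB1 (107 ± 3.32 CPM per kilobase) stayed above CSNK1A1 (51.2 ± 1.54) in siERRα as well. By that length in siNC, the ranges of AXIN2 (3.14 to 3.52), ZNRF3 (3.13 to 3.24) and APC (2.99 to 3.26) overlapped. GSK3B (mean 8.49) then stood above TCF7L2 (mean 6.1), and NKD1 (1.07 to 1.2) stayed lowest. CSNK1A1 shares 4194 exon bases with the lncRNA ENSG00000230551 and AXIN2 1316 with the protein-coding gene ENSG00000266076, both on the same strand. APC shares 230 with the protein-coding gene ENSG00000258864, also on the same strand. The counts of CSNK1A1, AXIN2 and APC are therefore less certain. LEF1 shares 279 exon bases with LEF1-AS1 on the opposite strand, and TCF7L2 shares 300 with a lncRNA, and the counting's strand setting was not stated in the sources used here.

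Promoter sequences from RefSeq (GRCh38.p14, 250 bases before to 50 after the start) were at hand for 7 of the 10 genes, in 11 windows. AXIN2, NKD1 and ZNRF3 had no window and were not searched. The only windows of CTNNB1 (chr3:41199255-41199554), GSK3B (chr3:120094398-120094697) and LEF1 (chr4:108166252-108166551) lie inside their genes. The 5′ ends of these genes are at 41194741, 120094994 and 108168956, in that order. For APC, CSNK1A1 and TCF7L2, a window spans the 5′ end of the gene and any other lies inside it. The ERR element TCAAGGTCA, searched on both strands, was in none of the 11 windows and is in 0.353% of all 35116 windows. Its shorter core AGGTCA, which lies inside that element, was in 1 TCF7L2 window and is in 13.8% of all windows. The TCF/LEF cores CTTTGAT and CTTTGAA were in none, against 2.62% and 4.43% of all windows. The CTNNB1 window has a GC content of 74.0%, and the median of all windows is 58.7%. These matches only describe the letters in the windows.

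The 5 lists of other pathway genes, written from general knowledge with earlier results of these data known, held calls in both directions. Their counts stand beside the shares of all genes tested, which were 12.6% lower and 11.4% higher in siERRα against siNC and 20.3% lower and 21.4% higher with imatinib against siNC. Of 23 other destruction complex subunits and regulators, all tested, 2 were lower and 7 higher in siERRα against siNC (8.7% and 30.4%, median log2FC 0.07, against 0.01 over all genes). With imatinib 5 were lower and 5 higher (21.7% each, median 0.01, against 0.00), which is near the share of all genes. At a log2FC of at least 0.5, 1 lower and 0 higher genes were left in siERRα, and 0 lower and 1 higher with imatinib. The lower ones in siERRα were SKP1 (log2FC −0.55, 13.4 CPM in siERRα and 19.6 CPM in siNC), the adaptor of the SCF ubiquitin ligase, and FBXW11 (−0.30), an F-box protein that recognises phosphorylated β-catenin. The 3′ UTR of SKP1 holds 2 heptamers. CSNK1E, a kinase acting on Dishevelled, was higher in siERRα (0.35) and lower with imatinib (−0.31), as was TNKS2 (0.25 and −0.26), a tankyrase that marks axins for destruction. With imatinib, APC2, the relative of APC (0.98, 5.97 CPM against 3.02 CPM in siNC), and the scaffold gene AMER1 (0.41) were higher. The count of 7 higher genes in siERRα fell to 2 without siNC replicate 1, 4 without siNC replicate 2, 3 without siNC replicate 3 and 4 without siERRα replicate 1 or 3. With imatinib, the 5 lower genes became 3 without siNC replicate 1 or imatinib replicate 3, and the 5 higher genes became 3 without either of these and 2 without siNC replicate 3.

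Among 25 other nuclear partners, all tested, 3 were lower and 9 higher in siERRα (12% and 36%, median log2FC 0.14), and 5 were lower and 7 higher with imatinib (20% and 28%, median 0.06). The shares of lower genes were near those of all genes, 12.6% and 20.3%, and the shares of higher genes stood beside 11.4% and 21.4%. At a log2FC of at least 0.5, 0 lower and 2 higher genes were left in siERRα, and 0 lower and 1 higher with imatinib. The kinase genes NLK and HIPK2, whose products phosphorylate TCF/LEF factors, were the furthest above siNC in siERRα. NLK averaged 156 ± 9.93 CPM in siERRα, 79.4 ± 5.22 CPM with imatinib and 103 ± 4.17 CPM in siNC, with log2FC values of 0.59 (adjusted p = 1.45e-06) in siERRα and −0.38 (adjusted p = 9.57e-05) with imatinib. HIPK2 averaged 285 ± 13.2 CPM in siERRα, 156 ± 29.8 CPM with imatinib and 147 ± 6.24 CPM in siNC, with a log2FC of 0.95 in siERRα (adjusted p = 3.78e-06), and its 3′ UTR holds 1 heptamer. The Groucho corepressor genes were split: TLE1 was higher in siERRα (0.35) and TLE2 lower (−0.39, a call lost without siNC replicate 2, adjusted p = 0.0544), and TLE2 was higher with imatinib (0.78). TBL1X, a cofactor of β-catenin, was higher in siERRα (0.20), and its 3′ UTR holds 1 heptamer. With imatinib PYGO2, which joins β-catenin through BCL9, was higher (0.46) and the Mediator kinase gene CDK8 lower (−0.36). The 9 higher genes in siERRα became 5 without siNC replicate 1 and 4 without siNC replicate 3 or siERRα replicate 1, and the 5 lower genes with imatinib became 3 without siNC replicate 2 or 3 or imatinib replicate 2 or 3.

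Of 11 other feedback genes 8 were tested, and 1 was lower and 2 higher in siERRα (12.5% and 25%, beside 12.6% and 11.4% of all genes, median log2FC −0.16). With imatinib 0 were lower and 3 higher (0% and 37.5%, beside 20.3% and 21.4%, median 0.13), and at a log2FC of at least 0.5, 1 higher gene was left in each comparison. DKK4, a secreted Wnt inhibitor, averaged 17 ± 0.899 CPM in siERRα, 11.9 ± 0.719 CPM with imatinib and 8.85 ± 0.501 CPM in siNC. It was thus higher under either treatment, with log2FC values of 0.95 (adjusted p = 1.58e-07) in siERRα and 0.43 (adjusted p = 0.000586) with imatinib. TNFRSF19, a receptor gene, was higher in siERRα (0.33), and NKD2, the close relative of NKD1, was lower (−0.31, adjusted p = 0.0115). With imatinib, APCDD1, an inhibitor of Wnt at the membrane, was higher (0.53), as was the pseudoreceptor gene BAMBI (0.19, adjusted p = 0.0383). The call of APCDD1 was lost without siNC replicate 1 (adjusted p = 0.0664) or imatinib replicate 2 (0.0967), and that of BAMBI without either of these (0.0522 and 0.0576), siNC replicate 3 (0.17), imatinib replicate 3 (0.124) or the filter on low counts (0.076).

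Of 25 genes known as β-catenin targets in other cell types 21 were tested, of which 9 were lower and 4 higher in siERRα (42.9% and 19%, beside 12.6% and 11.4% of all genes, median log2FC −0.04), and 7 were lower and 6 higher with imatinib (33.3% and 28.6%, beside 20.3% and 21.4%, median −0.04). At a log2FC of at least 0.5, 5 lower and 0 higher genes were left in siERRα, and 6 lower and 3 higher with imatinib. CCND1, which encodes cyclin D1, averaged 214 ± 7.87 CPM in siERRα, 202 ± 7.44 CPM with imatinib and 305 ± 3.44 CPM in siNC, and was lower under either treatment (log2FC −0.51 and −0.59). JUN was likewise lower under either (−0.55 and −0.72). LBH, a transcription cofactor gene, followed the pattern of AXIN2, at 788 ± 28.6 CPM in siERRα, 1545 ± 54.0 CPM with imatinib and 991 ± 36.7 CPM in siNC (log2FC −0.33, adjusted p = 0.000125, and 0.64, adjusted p = 1.62e-08). BIRC5, which encodes survivin, was higher in siERRα (0.32) and with imatinib (0.14, adjusted p = 0.0384). Its call with imatinib was lost without siNC replicate 1 (adjusted p = 0.126) or 3 (0.146), imatinib replicate 2 (0.0603) or 3 (0.143) or the filter on low counts (0.134). VEGFA was lower with imatinib (−1.21) at 5.54 CPM, against 12.8 CPM in siNC. FOSL1, singled out after its values were seen, had log2FC values of −0.59 in siERRα (edgeR adjusted p = 0.046) and −2.19 with imatinib (adjusted p = 1.24e-06). Its level was low, at averages of 1.83 CPM in siERRα, 0.607 CPM with imatinib and 2.76 CPM in siNC. The 4 higher genes in siERRα became 2 without siNC replicate 1 or 3 or siERRα replicate 3.

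β-catenin also sits in adherens junctions, and of 15 other catenin and cadherin genes 12 were tested. In siERRα 3 were lower and 2 higher (25% and 16.7%, beside 12.6% and 11.4% of all genes, median log2FC −0.17), and with imatinib 2 were lower and 3 higher (16.7% and 25%, beside 20.3% and 21.4%, median 0.10). At a log2FC of at least 0.5, 1 lower and 1 higher gene were left in siERRα, and 0 lower and 2 higher with imatinib. CTNND1, which encodes p120-catenin, averaged 11.9 ± 0.584 CPM in siERRα, 19.2 ± 2.04 CPM with imatinib and 18.4 ± 1.46 CPM in siNC (log2FC −0.63 in siERRα, adjusted p = 3.64e-05), and its 3′ UTR holds 1 heptamer. CDH11, the most abundant cadherin gene named here, averaged 528 ± 19.5 CPM in siERRα, 675 ± 2.35 CPM with imatinib and 651 ± 7.66 CPM in siNC (log2FC −0.30 in siERRα, adjusted p = 0.000171). VCL, which encodes vinculin, was lower in siERRα (−0.16, adjusted p = 0.022), and CTNNA1, which encodes α-catenin, was higher in siERRα (0.16, adjusted p = 0.0254) and with imatinib (0.15, adjusted p = 0.0198). These calls were not stable. VCL lost its call without siNC replicate 1 (adjusted p = 0.111) or 3 (0.0514), siERRα replicate 1 (0.0622) or 3 (0.07) or the filter on low counts (0.0571). CTNNA1 lost that in siERRα without any single siNC replicate (0.0798, 0.0887 and 0.0887 for replicates 1, 2 and 3), siERRα replicate 2 (0.0687) or 3 (0.0624) or the filter (0.0697), and that with imatinib without siNC replicate 1 (0.0644) or 2 (0.0613) or the filter (0.0815). JUP, the gene of plakoglobin, a close relative of β-catenin, had a log2FC of 0.15 in siERRα (adjusted p = 0.124, and 0.0217 without siERRα replicate 2) and was lower with imatinib (−0.32, adjusted p = 0.00086). CTNNA3 was called higher in siERRα, and CDH5 and CDH1, also markers of endothelial and epithelial cells, with imatinib, at averages of 1.5 CPM or less in every group. In siERRα the 2 higher genes became 1 without any single siNC replicate, without siERRα replicate 3, with DESeq2, with either other filter on low counts and with the column number as a replicate block. With imatinib the 2 lower genes became 1 without siNC replicate 1 or 3, without any single imatinib replicate, with limma-voom and with the replicate block.

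**Figure D5:**
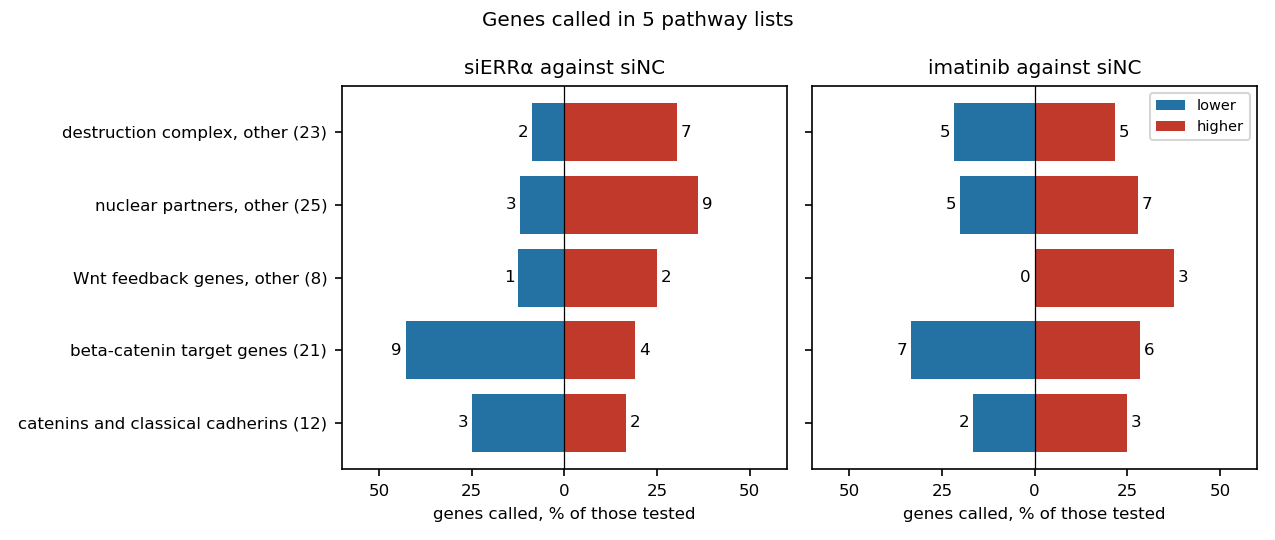
Share of the tested genes of each of 5 pathway lists called lower (bars to the left) or higher (bars to the right) at an edgeR adjusted p under 0.05, for siERRα (left) and imatinib (right), each against siNC. Numbers at the bars are genes called and numbers in parentheses genes tested. The list of β-catenin target genes has 9 lower and 4 higher genes in siERRα, and the other nuclear partners have 3 lower and 9 higher.

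The genes whose log2 CPM over the 9 libraries was most like that of CTNNB1, among 9116 genes averaging at least 10 CPM, were GLUL and HDAC3 (Pearson r = 0.998 each), ARL10 and FAM102B (0.997 each) and BICC1 (0.996). GLUL, the gene of glutamine synthetase, averaged 73.5 CPM in siERRα, 203 CPM with imatinib and 166 CPM in siNC, and its 3′ UTR holds no heptamer. HDAC3 and BICC1 hold 1 heptamer each and ARL10 holds 4. For AXIN2 the most similar genes were C1orf198 and C2orf68 (0.990 each), MYBPC2 (0.989), RPS6KA2 (0.988) and CMTR1 (0.987). The 9 libraries form 3 groups, so these coefficients mostly describe shared group means.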

How the data were processed

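The deposited table holds counts per gene, which the authors made from paired-end reads of 100 bases with STAR 2.7.3a and featureCounts 2.0.1 on GRCh38, per the submitters' processing notes. The annotation release and the settings for strand and for reads with several matches were not given in the sources used here. Another deposited table only names the groups and was left out. Library columns were matched to samples by the number in their names.

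Counts were tested with edgeR 4.0.16 (R 4.3.3): TMM normalisation, filterByExpr, a robust quasi-likelihood fit over all 9 libraries and Benjamini-Hochberg adjustment over 16976 genes. Alternatives were DESeq2 1.42.0, limma-voom 3.58.1, other filters, scaling and fits, a log2FC minimum of 0.5 and leaving out each library. Replicates were numbered in accession order.

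The 10 genes and all lists were chosen with earlier results of these data known. Besides the 10, the text names up to 4 called genes of smallest p in each list and comparison, ESRRA, KIT, ANO1 and ETV1, and the 5 genes most like CTNNB1 and AXIN2. Sequences and positions come from GENCODE release 44 and RefSeq. No 2 libraries of a group agreed within counting noise (chi-square over degrees of freedom, 3.77 to 16.5).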

Additional observations from a re-analysis of the deposited data

How the results depend on the processing

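With a log2FC of at least 0.5 required as well, 1233 genes were called in siERRα against siNC in place of 4064, 2988 with imatinib against siNC in place of 7072 and 4468 in siERRα against imatinib in place of 8865. Of the 10 genes, 1 with imatinib against siNC and 3 in siERRα against imatinib then remained past the threshold. Leaving out each library in turn gave 4 to 6, 4 to 6 and 5 to 7 of the 10 genes called in the same 3 comparisons, and 2910 to 4401, 5794 to 7780 and 8203 to 8934 of all genes. The numbers 1 to 3 in the column names did not pair the libraries: deviations from the group mean correlated between −0.0996 and 0.147 for the same number and between −0.133 and 0.0926 for different numbers. With the number as a replicate block, 5, 5 and 7 of the 10 genes were called, and 3652, 6764 and 8612 of all genes, and LEF1 lost its call in siERRα (adjusted p = 0.0648). Over the 10 genes, 22 of 480 alternative values changed side of the threshold, and no called value changed sign. Values of AXIN1 in all 3 comparisons, CSNK1A1 in siERRα against siNC, LEF1 with imatinib and TCF7L2 in siERRα against imatinib, none of them called, crossed 0. CTNNB1, AXIN1, AXIN2, CSNK1A1, TCF7L2 and NKD1 kept their side of the threshold under all of them. For the other named genes 41 of 1114 alternative values changed side of the threshold, and of the list counts 54 of 340 moved by over 1.5 times. In promoters cut to the last 100 bases before the start, the AGGTCA match in TCF7L2 was absent. The 3 libraries per group, from 1 cell line, and transcripts that share exons limit these results.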
